A study of Homo sapiens with 28 samples.

Results

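The metallothioneins and zinc transporters are 10 named genes of the 26475 listed in every library, followed across all 12 treatment groups of the study. They are 5 metallothioneins (MT1E, MT1F, MT1G, MT1X and MT2A), the zinc sensor MTF1, the zinc exporter SLC30A1 (ZnT1) and the zinc importers SLC39A1 (ZIP1), SLC39A6 (ZIP6) and SLC39A7 (ZIP7). They were taken by name, whatever their levels. Of the 10, 9 were above 0 in all 28 libraries and could be tested. MT1E was listed at 0 in every one.

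All libraries were poly(A) RNA-seq of LNCaP, an androgen-responsive human prostate cancer cell line, grown in serum-containing medium. The knockdown series held 16 libraries in 8 groups of 2. The 4 HOXB13-depleted groups were shHOXB13+shp300/CBP, shHOXB13+shp300, shHOXB13+shCBP and shHOXB13, and the 4 matching groups with the control hairpin were shCtrl+shp300/CBP, shCtrl+shp300, shCtrl+shCBP and shCtrl. The CCS1477 series held 12 libraries in 4 groups of 3, which were shHOXB13 CCS1477, shHOXB13 DMSO, shCtrl CCS1477 and shCtrl DMSO. CCS1477, an inhibitor of the p300/CBP bromodomain, was given at 250 nM for 48 hours, with DMSO as the vehicle. Every group, the controls included, carried a stably expressed hairpin. HOXB13, p300 (EP300) and CBP (CREBBP) were each targeted with a single hairpin, so a hairpin's other effects cannot be told apart from loss of its target.

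Free zinc is toxic to cells, and metallothioneins are small cysteine-rich proteins that bind it. When zinc rises, the transcription factor MTF1 binds metal response elements in the promoters of the metallothionein genes and of SLC30A1, whose product pumps zinc out of the cell. ZIP proteins bring zinc into the cytosol, ZIP1 and ZIP6 from outside the cell and ZIP7 out of the endoplasmic reticulum. Luminal cells of the normal prostate hold unusually much zinc, and zinc uptake is known to be reduced in prostate cancer. HOXB13 is a homeobox transcription factor of the luminal prostate, and p300 and CBP are histone acetyltransferases that act as coactivators.

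Because MTF1 reads its sites in promoter DNA, the promoters of the members are shown first. RefSeq entries (GRCh38.p14) were matched for 7 of the 10 members. They were searched on both strands for the core of the metal response element, TGCACNC or TGCGCNC, in the 250 bases before the RefSeq start. The 4 promoters below are the metallothionein, exporter and importer promoters that held a match at their only listed start, written 5′ to 3′ on the strand of the gene. Capitals mark the matches, which appear as GNGTGCA or GNGCGCA where they lie on the opposite strand.
MT2A, chr16:56608334-56608583, plus strand: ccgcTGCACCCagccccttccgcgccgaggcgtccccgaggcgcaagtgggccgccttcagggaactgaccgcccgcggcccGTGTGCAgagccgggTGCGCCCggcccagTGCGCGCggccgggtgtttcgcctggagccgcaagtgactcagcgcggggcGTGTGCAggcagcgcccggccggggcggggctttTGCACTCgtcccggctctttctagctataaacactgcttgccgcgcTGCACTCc
MT1X, chr16:56682220-56682469, plus strand: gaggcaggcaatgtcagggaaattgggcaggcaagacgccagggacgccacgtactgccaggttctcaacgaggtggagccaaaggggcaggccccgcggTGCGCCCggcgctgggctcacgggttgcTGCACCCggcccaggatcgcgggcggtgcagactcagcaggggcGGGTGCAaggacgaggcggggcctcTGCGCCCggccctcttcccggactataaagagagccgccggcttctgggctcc
SLC30A1, chr1:211579162-211579411, minus strand: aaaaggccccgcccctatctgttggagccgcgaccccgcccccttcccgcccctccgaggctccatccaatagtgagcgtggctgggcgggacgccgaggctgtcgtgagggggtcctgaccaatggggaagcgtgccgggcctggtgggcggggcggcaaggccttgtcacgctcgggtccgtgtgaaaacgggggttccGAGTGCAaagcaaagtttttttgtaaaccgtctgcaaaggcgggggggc
SLC39A6, chr18:36129341-36129590, minus strand: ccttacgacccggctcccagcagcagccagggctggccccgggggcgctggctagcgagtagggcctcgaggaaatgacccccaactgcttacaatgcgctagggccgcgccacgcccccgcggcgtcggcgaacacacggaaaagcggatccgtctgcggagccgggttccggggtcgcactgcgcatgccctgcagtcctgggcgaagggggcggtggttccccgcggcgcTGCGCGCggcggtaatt

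MT2A held 7 matches, 5 on its own strand and 2 on the opposite one, and MT1X held 4. SLC30A1 and SLC39A6 held 1 each. No matches overlapped one another. SLC39A1 has 2 listed starts, 1 of which had a match, and MTF1 and SLC39A7 had none. Among 35116 promoters of the same length, 24.8% held at least 1 match, 0.37% at least 4 and 0.0313% at least 7. A single match was therefore common, whereas the counts in MT2A and MT1X were rare. A match is a run of letters and not evidence of binding.

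**Figure D1:**
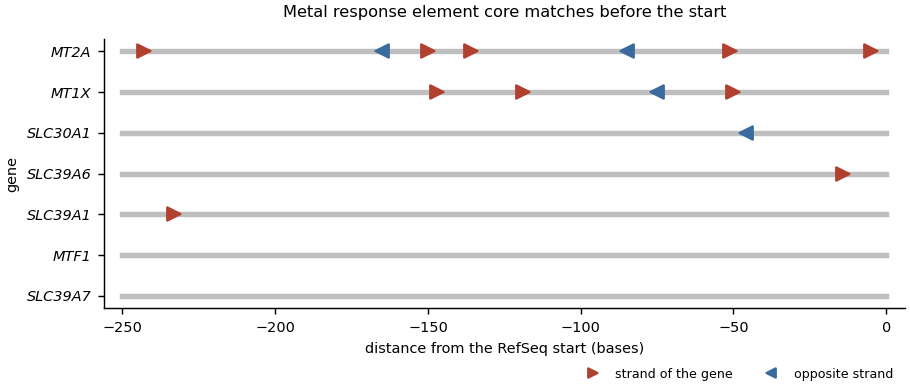
Matches to the core of the metal response element in the 250 bases before the RefSeq start of 7 genes. The x axis is the distance from the start in bases. Triangles point right for matches on the strand of the gene and left for the opposite strand, and the row of SLC39A1 overlays its 2 starts. MT2A has 7 matches and MT1X 4, against 1 or none in the other rows.

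The 5 metallothionein genes lie together on chromosome 16 (GRCh38, GENCODE 44). MT2A spans 56608584 to 56609497, MT1E 56625475 to 56627112, MT1F 56657731 to 56660698, MT1G 56666730 to 56668065 on the minus strand, and MT1X 56682470 to 56684196. Their coding sequences were 88.7% to 93.7% identical over the 10 pairs. Despite that identity, few stretches were shared exactly. Of the 50-base windows of each transcript, 4.5% in MT2A, 5.3% in MT1E, 6.1% in MT1F, 18.0% in MT1X and 19.9% in MT1G also occurred in another metallothionein transcript. A read pair lying wholly within shared sequence cannot be assigned to 1 gene, so the levels of MT1X and MT1G are the less certain ones. The window of 50 bases was chosen for this count. MT1X also overlaps an unnamed annotated gene, and the counting did not use strand. MTF1 lies on chromosome 1 from 37809574 to 37859592, SLC30A1 on chromosome 1 from 211571568 to 211579161 and SLC39A1 on chromosome 1 from 153959099 to 153968184. SLC39A1 overlaps 5 annotated genes, CREB3L4 among them, and MTF1 and SLC39A6 each overlap an unnamed annotated gene. SLC39A6 lies on chromosome 18 from 36108531 to 36129385, and SLC39A7 on chromosome 6 from 33200305 to 33204439, where it overlaps RXRB.

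Each library held 7458934 to 16338528 mapped reads, recovered from the steps of the values. Metallothionein transcripts are short, so even their high FPKM (read fragments scaled by gene length and by the mapped reads of the library) rested on modest counts, with a median of 599 reads for MT2A, 140 for MT1X, 109 for MT1G and 50 for MT1F. The lowest value of MT1F rested on 12 reads. Lengths implied by the deposited values were 404 to 483 bases for the 4 metallothioneins, and 14724 bases for SLC39A7, against 4003 bases in all its annotated exons. The FPKM level of SLC39A7 is therefore low for its reads when set beside other genes, and that of SLC30A1, with an implied 2018 bases against 5893, is high. A constant length cancels in a fold change, but which sequence was counted for these genes is not known, and its part in their differences was not tested. HOXB13 was lower in every shHOXB13 library (5.25 to 12.1 FPKM, against 43.2 to 87.6 FPKM in shCtrl libraries of the knockdown series, and 28.4 to 32.2 FPKM in shHOXB13 libraries against 109.8 to 147 FPKM in shCtrl libraries of the other series). EP300 had 3.16 and 3.39 FPKM in shHOXB13+shp300 libraries, against 5.62 and 5.88 FPKM in shHOXB13 libraries, and 4.34 and 4.87 FPKM in shCtrl+shp300 libraries, against 11.5 and 10.5 FPKM in shCtrl libraries, so shHOXB13 alone already went with lower EP300 (log2 -0.92, limma adjusted p = 0.000671). CREBBP was 2.96 to 3.36 FPKM with shCBP alone, against 4.72 to 6.44 FPKM in the shHOXB13 and shCtrl libraries. HOXB13 itself was lower in shCtrl cells with shCBP (log2 -0.87, limma adjusted p = 0.00859) and with shp300/CBP (log2 -0.81, limma adjusted p = 0.0064), and in shHOXB13 cells with shp300/CBP (log2 -0.80, limma adjusted p = 0.0051), so those arms differ in HOXB13 too. With both hairpins in shHOXB13 cells EP300 had 4.17 and 4.47 FPKM, against 5.62 and 5.88 FPKM in shHOXB13 libraries, and CREBBP 3.62 and 4.57 FPKM, against 5.15 and 4.72 FPKM, neither past the threshold (limma adjusted p = 0.0729 and 0.228). With both hairpins in shCtrl cells, EP300 differed by log2 -0.90 (limma adjusted p = 0.0023) and CREBBP by -0.50 (limma adjusted p = 0.044). In the CCS1477 series, shHOXB13 with DMSO went with lower EP300 (log2 -0.86, limma adjusted p = 4.4e-05) and CREBBP (log2 -0.97, limma adjusted p = 6.3e-06). CCS1477 went with higher EP300 (log2 0.74, limma adjusted p = 0.00035) and CREBBP (log2 1.16, limma adjusted p = 5.8e-06) in shHOXB13 cells. In shCtrl cells these were 0.27 and 0.42 (limma adjusted p = 0.099 and 0.0099). The 8 luminal prostate markers summed to 1140 to 6980 FPKM, whereas 4 basal markers summed to at most 4.69 FPKM. Except in shHOXB13+shp300/CBP, described below, replicates correlated at 0.9602 or more.

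A gene was called higher or lower at an adjusted p under 0.05 (limma on log2(FPKM + 0.1), Benjamini-Hochberg over all genes) together with a fold of at least 1.5. Over all genes, the median log2 fold change of shHOXB13 against shCtrl was -0.33 in both series and -0.35 with shp300/CBP, so most genes read lower per mapped read. CCS1477 in shHOXB13 cells had a median of 0.20. Scaling by the median of ratios moves these medians to between -0.01 and 0.05.

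HOXB13 knockdown raised 2 of the 4 tested metallothioneins, MT2A and MT1F, in both series. With the knockdown libraries 3 members rose, namely MT2A, MT1F and SLC30A1, and 1 fell, SLC39A6. The background was 7.15% of 17678 genes higher and 26.8% lower. With DMSO, 4 members rose (MT2A, MT1F, MTF1 and SLC39A7) and none fell, against a background of 8.58% of 15907 genes higher and 30.6% lower. With median-of-ratios scaling 7 members were called higher and none lower in both series, while over all genes the shares became 13.7% higher and 12.4% lower in the knockdown series and 16.9% higher and 18.0% lower with DMSO. In bulk RNA, fewer cells of a kind and less RNA per cell cannot be told apart. The luminal marker sum, most of it KLK3, moved too, at 4210 to 4330 FPKM in shHOXB13 libraries, against 2220 to 2380 FPKM in shCtrl libraries, and at 6020 to 6980 FPKM in shHOXB13 DMSO libraries, against 2840 to 2980 FPKM in shCtrl DMSO libraries. The list did not move as one, since FOLH1 averaged 118 FPKM in shHOXB13 libraries, against 314 FPKM in shCtrl libraries. The sum of 4 immune markers, almost wholly CD68, was 9.3 to 12.3 FPKM in shHOXB13 libraries, against 4.18 to 5.74 FPKM in shCtrl libraries, and that of 5 fibroblast markers was 4.51 to 5.46 FPKM, against 1.56 to 2.18 FPKM. With DMSO the immune sum was 5.27 to 7.26 FPKM in shHOXB13 libraries, against 4.28 to 4.53 FPKM in shCtrl libraries, and the fibroblast sum 2.64 to 2.93 FPKM, against 3.20 to 3.62 FPKM. The basal sum was 0.214 to 0.281 FPKM in shHOXB13 libraries, against 3.18 to 3.67 FPKM in shCtrl libraries, and 0.0398 to 0.106 FPKM in shHOXB13 DMSO libraries, against 2.89 to 4.69 FPKM in shCtrl DMSO libraries. The part of these in the results was not tested.

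MT2A, the most abundant metallothionein here, had 311 and 361 FPKM in shHOXB13 libraries, against 81.6 and 109.6 FPKM in shCtrl libraries. It had 307, 317 and 276 FPKM in shHOXB13 DMSO libraries, against 102, 76.1 and 58.0 FPKM in shCtrl DMSO libraries. In both series every shHOXB13 library was above every control. The log2 fold change was 1.82 ± 0.55 (SE, limma adjusted p = 0.0196, 3.54-fold, n = 2 each) in the knockdown series and 1.96 ± 0.20 (limma adjusted p = 5.55e-06, 3.9-fold, n = 3 each) with DMSO. Over all genes tested, its rise ranked 406 of 17678 and 226 of 15907. The knockdown-series call was lost without 1 library at a time, at limma adjusted p values of 0.12 without shCtrl replicate 1, 0.061 without shHOXB13 replicate 1 and 0.098 without shHOXB13 replicate 2, with log2 fold changes of 1.61, 1.93 and 1.72. The DMSO call held without each library.

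MT1F, a lower-level metallothionein, had 10.3 and 12.6 FPKM in shHOXB13 libraries, against 4.35 and 3.95 FPKM in shCtrl libraries. With DMSO it had 13.1, 8.53 and 9.65 FPKM in shHOXB13 libraries, against 5.12, 4.11 and 3.23 FPKM in shCtrl libraries. The groups did not overlap in either series. It rose by 1.43 ± 0.36 (log2, SE, limma adjusted p = 0.00842) and by 1.31 ± 0.19 (limma adjusted p = 0.000111). Without shHOXB13 replicate 2 the first value was 1.29 at a limma adjusted p of 0.065.

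MT1G and MT1X, which share most sequence with the family, were not called in either series under the deposited scaling. MT1G had 38.7 and 32.7 FPKM in shHOXB13 libraries, against 17.7 and 23.8 FPKM in shCtrl libraries (log2 0.79 ± 0.43, limma adjusted p = 0.171), and its DMSO groups overlapped (log2 0.27 ± 0.20, limma adjusted p = 0.28). MT1X had 32.8 and 31.7 FPKM in shHOXB13 libraries, against 26.2 and 37.3 FPKM in shCtrl libraries. With DMSO, MT1X had 28.6, 30.1 and 26.7 FPKM in shHOXB13 libraries, against 25.4, 18.3 and 20.7 FPKM in shCtrl libraries, a 1.34-fold difference that passed the test but not the fold (limma adjusted p = 0.0155). These calls depended on the scaling. With median-of-ratios scaling MT1G was called higher in both series (log2 1.19 and 0.61, limma adjusted p = 0.032 and 0.027) and MT1X with DMSO (log2 0.76, limma adjusted p = 0.00047), and MT1G was also called in the knockdown series with only the compared groups fitted (limma adjusted p = 0.012). MT2A made up 79.2% to 82.4% of the summed metallothionein FPKM in shHOXB13 libraries, against 62.8% in both shCtrl libraries, and 80.5% to 82.7% in shHOXB13 DMSO libraries, against 55.8% to 66.6% in shCtrl DMSO libraries.

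**Figure D2:**
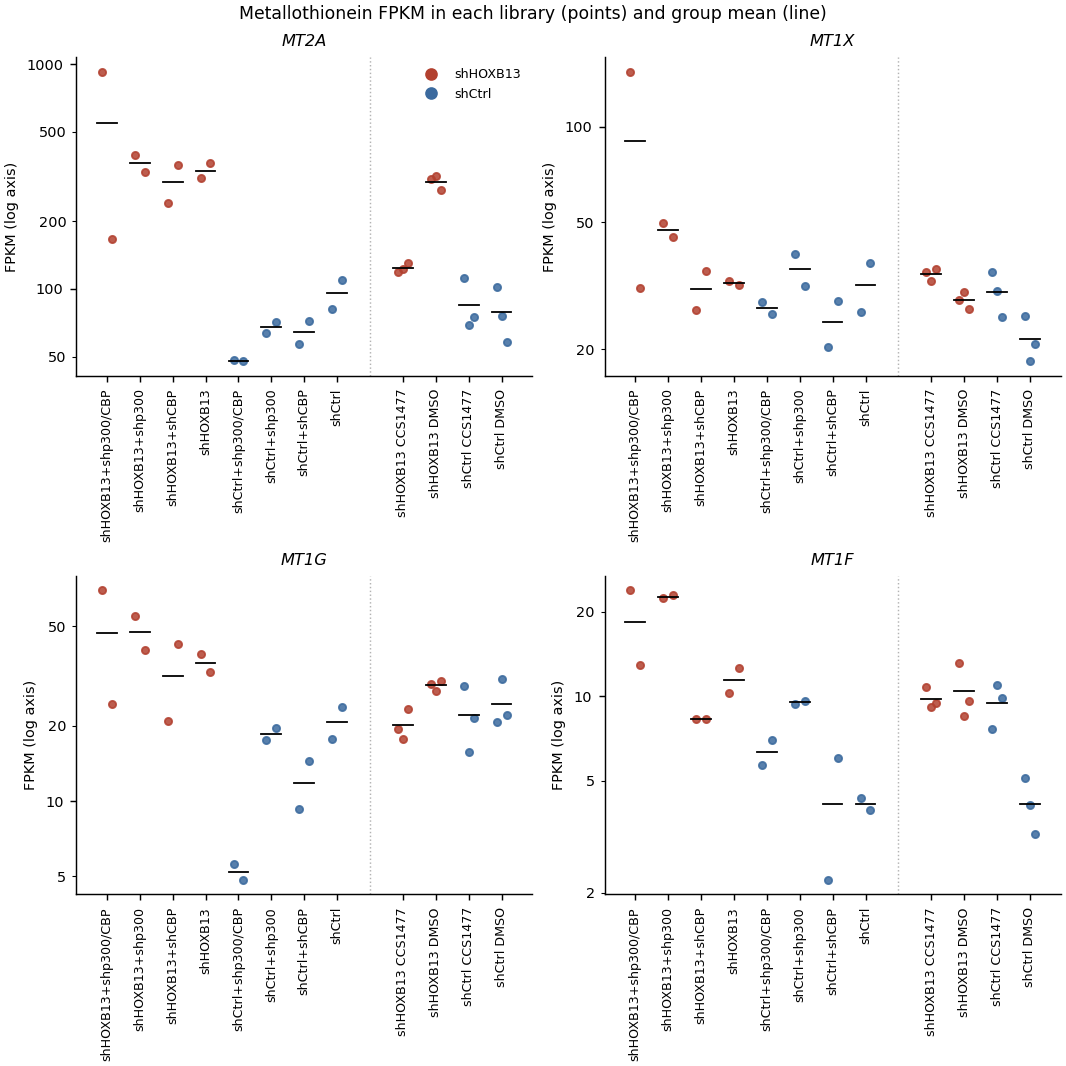
FPKM of 4 metallothioneins in each library on a log axis, by group. Points are libraries and lines are group means, red for shHOXB13 and blue for shCtrl, with the knockdown series left of the dotted line and the CCS1477 series right of it. In MT2A every shHOXB13 library is above every shCtrl library of its series, and the 2 libraries of shHOXB13+shp300/CBP lie far apart, at 926 and 167 FPKM.

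MTF1, the factor that senses zinc and switches on metallothioneins, had 5.82, 5.31 and 4.93 FPKM in shHOXB13 DMSO libraries, against 3.10, 3.45 and 3.89 FPKM in shCtrl DMSO libraries. It rose 1.53-fold, just past the fold required (log2 0.61 ± 0.11, limma adjusted p = 0.000655), and its log2 fold change fell under that fold at 0.53 without shCtrl DMSO replicate 1 and at 0.55 without shHOXB13 DMSO replicate 1. In the knockdown series it had 3.69 and 3.41 FPKM in shHOXB13 libraries, against 2.85 and 2.65 FPKM in shCtrl libraries, and was not called (log2 0.36 ± 0.17, limma adjusted p = 0.126), except with median-of-ratios scaling (log2 0.75, limma adjusted p = 0.0075).

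SLC30A1, the exporter that MTF1 also controls, had 18.6 and 18.0 FPKM in shHOXB13 libraries, against 11.3 and 11.9 FPKM in shCtrl libraries. It rose by 0.66 ± 0.15 (log2, SE, limma adjusted p = 0.00389), and the call held without each library. With DMSO it had 23.0, 25.9 and 25.7 FPKM in shHOXB13 libraries, against 18.3, 17.0 and 16.0 FPKM in shCtrl libraries. That difference passed the test at 1.45-fold (log2 0.54 ± 0.07, limma adjusted p = 4.66e-05), under the fold required, and was called with the other scalings and without shCtrl DMSO replicate 1 or shHOXB13 DMSO replicate 1 (log2 0.59 each).

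The importers did not move together. SLC39A7, which releases zinc from the endoplasmic reticulum, had 19.4, 22.1 and 22.9 FPKM in shHOXB13 DMSO libraries, against 10.95, 11.6 and 12.3 FPKM in shCtrl DMSO libraries, and rose by 0.88 ± 0.09 (log2, SE, limma adjusted p = 4.28e-06). In the knockdown series it had 14.4 and 13.3 FPKM in shHOXB13 libraries, against 10.1 and 9.10 FPKM in shCtrl libraries, a 1.44-fold difference (limma adjusted p = 0.0425) that was called with median-of-ratios scaling (log2 0.92, limma adjusted p = 0.00063) and when rescaled to a fixed sum (log2 0.73, limma adjusted p = 0.0038). SLC39A6, a plasma membrane importer, went the other way in that series, with 39.3 and 36.3 FPKM in shHOXB13 libraries, against 62.1 and 62.3 FPKM in shCtrl libraries. It fell by 0.72 ± 0.21 (log2, SE, limma adjusted p = 0.0187). That call is weak, since the log2 value was -0.32 (limma adjusted p = 0.24) with median-of-ratios scaling, and leaving out any 1 of the 4 libraries gave limma adjusted p values of 0.055 to 0.10, at log2 values of -0.72 without shCtrl replicate 1, -0.78 without shHOXB13 replicate 1, -0.72 without shCtrl replicate 2 and -0.66 without shHOXB13 replicate 2. With DMSO, SLC39A6 had 60.1, 65.4 and 66.4 FPKM in shHOXB13 libraries, against 81.4, 84.5 and 83.8 FPKM in shCtrl libraries, a log2 difference of -0.38 beside the all-gene median of -0.33. SLC39A1, the main uptake transporter described for prostate cells, had 35.8 and 35.7 FPKM in shHOXB13 libraries, against 29.2 and 32.2 FPKM in shCtrl libraries. With DMSO it had 37.0, 43.8 and 43.7 FPKM in shHOXB13 libraries, against 40.9, 39.8 and 40.4 FPKM in shCtrl libraries (log2 0.04 ± 0.07). It was called in none of the 14 comparisons, and in the knockdown series only median-of-ratios scaling called it higher (log2 0.63, limma adjusted p = 0.013).

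**Figure D3:**
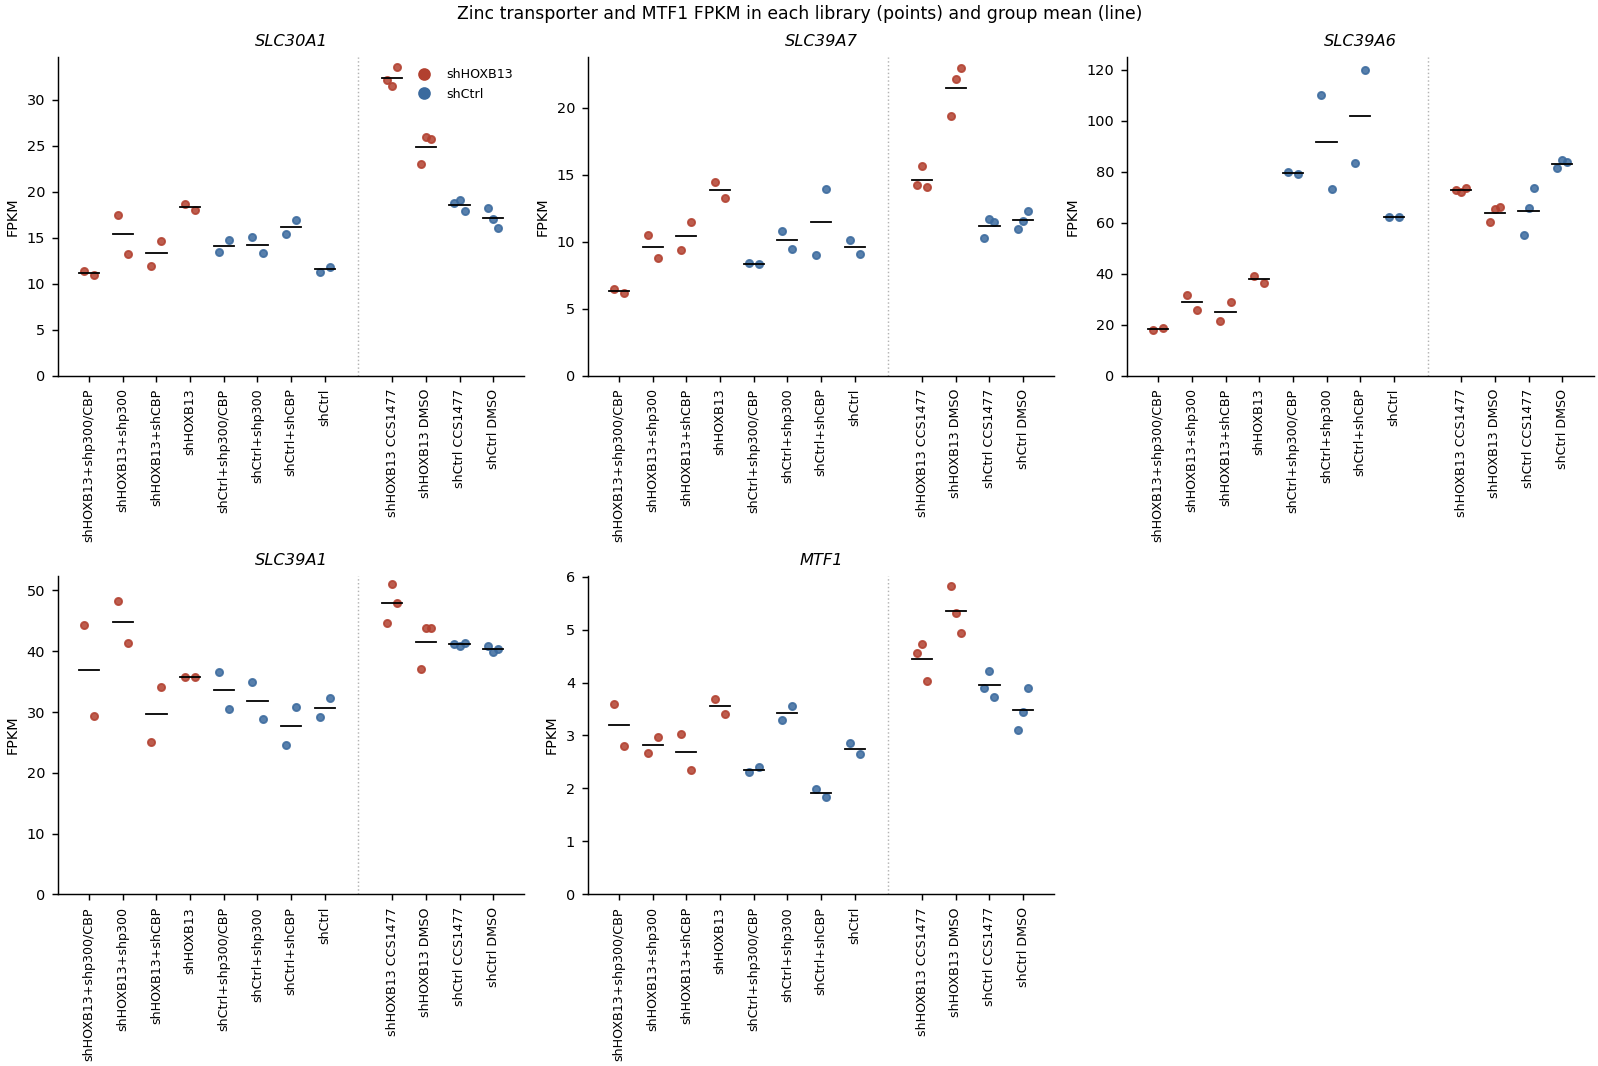
FPKM of the exporter SLC30A1, the importers SLC39A7, SLC39A6 and SLC39A1, and the sensor MTF1 in each library, on axes that start at 0. Points are libraries and lines are group means, red for shHOXB13 and blue for shCtrl, with the CCS1477 series right of the dotted line. SLC39A6 steps down to 18.0 and 18.9 FPKM in shHOXB13+shp300/CBP libraries, and SLC30A1 is highest in shHOXB13 CCS1477 libraries, at 31.5 to 33.5 FPKM.

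CCS1477 lowered MT2A in HOXB13-depleted cells and not in control cells. MT2A had 119, 122 and 130.1 FPKM in shHOXB13 CCS1477 libraries, against 307, 317 and 276 FPKM in shHOXB13 DMSO libraries. It had 111, 68.9 and 74.7 FPKM in shCtrl CCS1477 libraries, against 102, 76.1 and 58.0 FPKM in shCtrl DMSO libraries. The first pair of groups did not overlap and the second did. MT2A fell by 1.28 ± 0.20 on the log2 scale in shHOXB13 cells (limma adjusted p = 0.00041, 2.42-fold lower) and differed by 0.12 ± 0.20 in shCtrl cells (limma adjusted p = 0.724). The difference between these effects was -1.39 ± 0.28 (limma interaction adjusted p = 0.00848), and it stayed called under every alternative and without each library. It was the only member called in shHOXB13 cells, against a background of 14.9% of genes higher and 5.31% lower, or 8.57% and 8.9% with median-of-ratios scaling, where MT1G and SLC39A7 were also called lower. SLC39A7 was also called without shHOXB13 DMSO replicate 1 or shHOXB13 CCS1477 replicate 2 (log2 -0.62 and -0.60), and MT1G without shHOXB13 CCS1477 replicate 3 (log2 -0.65). The luminal marker sum was 2300 to 2410 FPKM in shHOXB13 CCS1477 libraries, against 6020 to 6980 FPKM in shHOXB13 DMSO libraries, most of it KLK3, while FOLH1 averaged 231 FPKM in shHOXB13 CCS1477 libraries, against 214 FPKM in shHOXB13 DMSO libraries. The immune sum was 10.8 to 11.5 FPKM in shHOXB13 CCS1477 libraries, against 5.27 to 7.26 FPKM in shHOXB13 DMSO libraries, and the fibroblast sum 4.96 to 5.57 FPKM, against 2.64 to 2.93 FPKM. EP300 and CREBBP were also higher in shHOXB13 CCS1477 than in shHOXB13 DMSO libraries, as given above. The part of any of these in the MT2A value was not tested.

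MT1F behaved otherwise. It had 10.8, 9.13 and 9.45 FPKM in shHOXB13 CCS1477 libraries, against 13.1, 8.53 and 9.65 FPKM in shHOXB13 DMSO libraries, and it had 7.66, 10.9 and 9.89 FPKM in shCtrl CCS1477 libraries, against 5.12, 4.11 and 3.23 FPKM in shCtrl DMSO libraries. In control cells MT1F rose by 1.18 ± 0.19 (log2, SE, limma adjusted p = 0.00104), the only member called there, against a background of 6.58% higher and 5.56% lower, or 4.97% and 6.57% with median-of-ratios scaling. MT1X joined it without shCtrl DMSO replicate 1 (log2 0.62) or shCtrl CCS1477 replicate 3 (log2 0.61). The interaction was -1.25 ± 0.27 (limma adjusted p = 0.0122). Both MT2A and MT1F thus had negative interactions, MT2A through a fall in shHOXB13 cells and MT1F through a rise in shCtrl cells, and they were the 2 members called, against a background of 6.71% higher and 2.45% lower, or 4.43% and 4.25% with median-of-ratios scaling.

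With CCS1477 in both arms, the gap between shHOXB13 and shCtrl was small for the metallothioneins. MT2A differed by 0.57 ± 0.20 (log2, SE, limma adjusted p = 0.0359, 1.49-fold) and was not called, although it was without shCtrl CCS1477 replicate 1 (log2 0.78, limma adjusted p = 0.0049) and with median-of-ratios scaling (log2 0.79). MT1F differed by 0.05 ± 0.19. SLC30A1 was the 1 member called, against a background of 6.15% higher and 18.0% lower, or 10.5% and 10.7% with median-of-ratios scaling. It had 32.1, 31.5 and 33.5 FPKM in shHOXB13 CCS1477 libraries, against 18.8, 19.1 and 17.9 FPKM in shCtrl CCS1477 libraries, and rose by 0.80 ± 0.07 (log2, SE, limma adjusted p = 3.88e-06). Within shHOXB13 cells SLC30A1 was 0.38 ± 0.07 higher with CCS1477 than with DMSO (log2, limma adjusted p = 0.00128, 1.3-fold), and the all-gene median there was 0.20. SLC30A1 and MT2A had differences of opposite sign under CCS1477 in HOXB13-depleted cells, that of SLC30A1 under the fold required. The part of MTF1 in either was not tested.

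Among the other members, SLC39A7 had 14.2, 15.7 and 14.1 FPKM in shHOXB13 CCS1477 libraries, against 19.4, 22.1 and 22.9 FPKM in shHOXB13 DMSO libraries, a log2 difference of -0.55 ± 0.09 (limma adjusted p = 0.000439, 1.46-fold lower) that missed the fold. MT1X had 34.8, 32.7 and 35.8 FPKM in shHOXB13 CCS1477 libraries, against 28.6, 30.1 and 26.7 FPKM in shHOXB13 DMSO libraries (log2 0.27 ± 0.13, limma adjusted p = 0.114), and MT1G had 19.3, 17.7 and 23.4 FPKM, against 29.4, 27.5 and 30.3 FPKM (log2 -0.54 ± 0.20, limma adjusted p = 0.0528). In shCtrl cells SLC39A6 had 55.1, 65.6 and 73.5 FPKM with CCS1477, against 81.4, 84.5 and 83.8 FPKM with DMSO (log2 -0.37 ± 0.09, limma adjusted p = 0.0107, under the fold required). Its interaction was 0.56 ± 0.13 (limma adjusted p = 0.0154, 1.475-fold), also under the fold, and was called when rescaled to a fixed sum (log2 0.65) and without shCtrl CCS1477 replicate 3 (log2 0.66) or shHOXB13 DMSO replicate 3 (log2 0.59).

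**Figure D4:**
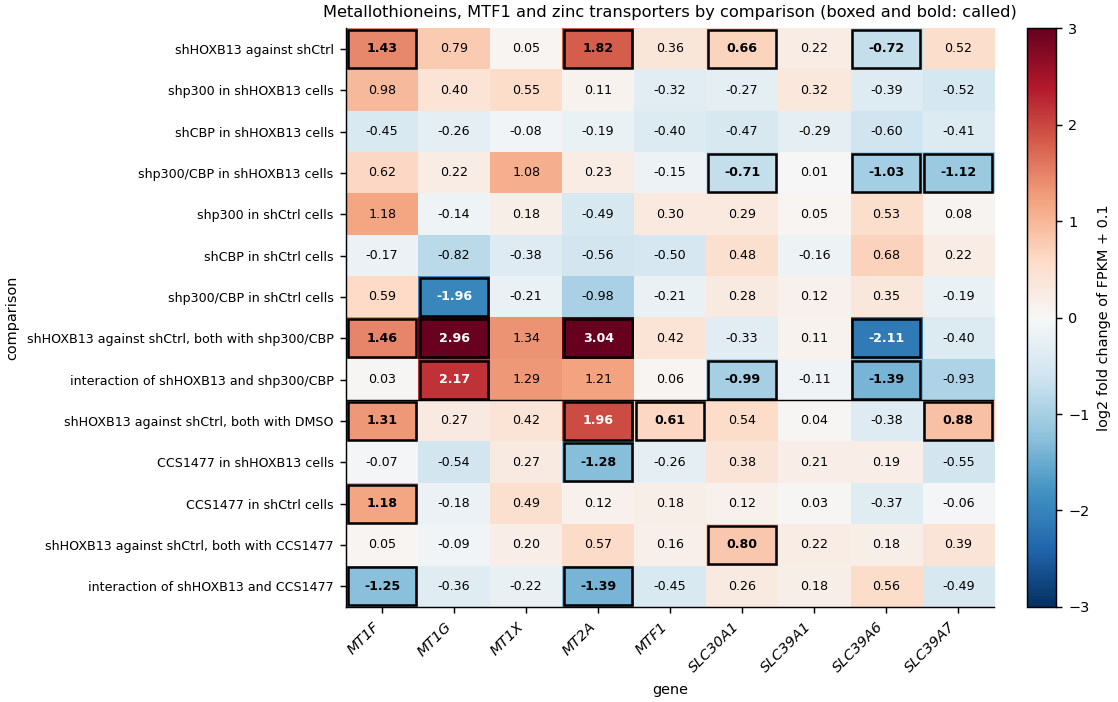
Log2 fold changes of 9 genes (columns) in the 14 comparisons (rows), the knockdown series above the black line. Red is higher and blue lower in the group named first, and boxed bold values are called. MT2A runs from 3.04 in shHOXB13 against shCtrl, both with shp300/CBP, to -1.39 in the interaction with CCS1477.

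Single knockdown of p300 or CBP left all 9 tested members uncalled. This held in shHOXB13 cells, where the background was 3.15% higher and 3.09% lower for shp300 and 0.385% higher and 1.08% lower for shCBP (1.13% and 1.48% with median-of-ratios scaling), and in shCtrl cells, where it was 1.0% higher and 2.09% lower for shp300 and 3.39% higher and 6.67% lower for shCBP (5.45% and 4.38%). At an unadjusted limma p under 0.05 the numbers of members were 2, 4, 2 and 3 of 9 in those 4 comparisons. Over all 17678 genes tested the numbers were 3979, 3550, 2868 and 4855. MT2A had 393 and 332 FPKM in shHOXB13+shp300 libraries and 240.3 and 357 FPKM in shHOXB13+shCBP libraries, against 311 and 361 FPKM in shHOXB13 libraries, and these groups overlapped. MT1F had the largest differences of the members with shp300, at 22.3 and 22.9 FPKM in shHOXB13+shp300 libraries, against 10.3 and 12.6 FPKM in shHOXB13 libraries (log2 0.98 ± 0.36, limma adjusted p = 0.13), and at 9.39 and 9.64 FPKM in shCtrl+shp300 libraries, against 4.35 and 3.95 FPKM in shCtrl libraries (log2 1.18 ± 0.36, limma adjusted p = 0.108). MT1F was called in both when only the compared groups entered the fit, at limma adjusted p values of 0.02 and 0.0098, and in shHOXB13 cells also by limma-voom on rebuilt reads, at 0.035. SLC39A6 had 83.6 and 119.9 FPKM in shCtrl+shCBP libraries, against 62.1 and 62.3 FPKM in shCtrl libraries (log2 0.68 ± 0.21, limma adjusted p = 0.0568), and was called higher with both other scalings, at 0.015, where SLC30A1 was too. MTF1 was at 2.00 and 1.85 FPKM in shCtrl+shCBP libraries, against 2.85 and 2.65 FPKM in shCtrl libraries (log2 -0.50 ± 0.17, limma adjusted p = 0.0825).

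Before the double knockdown, 1 library has to be described. The 2 libraries of shHOXB13+shp300/CBP correlated at 0.9508, the lowest of any replicate pair. Replicate 1 had 5.54 times the MT2A of replicate 2, 4.77 times the MT1X, 2.85 times the MT1G and 1.85 times the MT1F. MT2A ranked 38 and MT1X 62 of 17678 genes by that difference, whereas SLC30A1 differed 1.04 times, SLC39A6 0.953 times and SLC39A7 1.05 times. Of 4 immune markers, CD68 also moved with it. The sum of the 4 was 13.9 to 40.2 FPKM in shHOXB13+shp300/CBP libraries and 9.3 to 12.3 FPKM in shHOXB13 libraries, nearly all of it CD68, with 40.2 FPKM in replicate 1. PTPRC was above 0 in replicate 1 alone of the 28 libraries (0.015 FPKM), and the highest LST1 (0.0477 FPKM) was there too. Both values are near 0, and CD3E was 0 in both replicates. Of the basal markers, the highest KRT5 (0.333 FPKM) was in replicate 1. KRT14 had 0.0521 and 0.15 FPKM in replicates 1 and 2, KRT15 0.139 and 0.133 FPKM, and TP63 0.0131 and 0 FPKM. The 5 fibroblast markers summed to 6.27 to 18.3 FPKM in shHOXB13+shp300/CBP libraries and 4.51 to 5.46 FPKM in shHOXB13 libraries, nearly all of it COL1A1, with COL1A2 and DCN at 0 in both groups. The part of any of these in the metallothionein values was not tested.

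The p300 and CBP hairpins together lowered 3 of the 4 member transporters in HOXB13-depleted cells, and this did not rest on that library. SLC39A7 had 6.45 and 6.16 FPKM in shHOXB13+shp300/CBP libraries, against 14.4 and 13.3 FPKM in shHOXB13 libraries, and fell by 1.12 ± 0.19 (log2, SE, limma adjusted p = 0.00132). SLC39A6 had 18.0 and 18.9 FPKM in shHOXB13+shp300/CBP libraries, against 39.3 and 36.3 FPKM in shHOXB13 libraries, and fell by 1.03 ± 0.21 (limma adjusted p = 0.00457). SLC30A1 had 11.4 and 10.9 FPKM in shHOXB13+shp300/CBP libraries, against 18.6 and 18.0 FPKM in shHOXB13 libraries, and fell by 0.71 ± 0.15 (limma adjusted p = 0.00438). SLC39A1 had 44.4 and 29.4 FPKM in shHOXB13+shp300/CBP libraries, on either side of the 35.8 and 35.7 FPKM in shHOXB13 libraries, and was not called. Without 1 library at a time, the log2 value was -1.18 to -1.06 for SLC39A7, -1.09 to -0.97 for SLC39A6 and -0.74 to -0.68 for SLC30A1. Reads in genes made up 61.5% and 52.7% of mapped reads in shHOXB13+shp300/CBP libraries, against 68.8% and 66.3% in shHOXB13 libraries. The percentages were 74.3% and 72.2% in shCtrl libraries. FPKM divides by mapped reads, and the part of these percentages in the falls was not tested. The background was 9.06% of genes higher and 13.3% lower. Rescaled to a fixed sum per library, the shares were 14.1% and 6.68%, and SLC30A1 then fell short of the fold (log2 -0.47) while MT1X was called higher (log2 1.32).

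The metallothioneins gave no such answer. MT2A had 926 and 167 FPKM in shHOXB13+shp300/CBP libraries, on either side of the 311 and 361 FPKM in shHOXB13 libraries (log2 0.23 ± 0.55, limma adjusted p = 0.799). Without replicate 1 the difference was -1.0 (limma adjusted p = 0.02, called lower) and without replicate 2 it was 1.47 (limma adjusted p = 0.0021, called higher), so the direction depended on which library was kept. MT1X, at 149 and 31.2 FPKM, against 32.8 and 31.7 FPKM in shHOXB13 libraries, gave a log2 difference of 1.08 ± 0.51 (limma adjusted p = 0.139), -0.05 without replicate 1 and 2.20 without replicate 2. MT1G had 69.7 and 24.5 FPKM, against 38.7 and 32.7 FPKM in shHOXB13 libraries, and MT1F had 23.8 and 12.9 FPKM, against 10.3 and 12.6 FPKM.

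In control cells the double knockdown lowered MT1G alone among the members, against a background of 7.6% higher and 7.89% lower. MT1G had 5.62 and 4.84 FPKM in shCtrl+shp300/CBP libraries, against 17.7 and 23.8 FPKM in shCtrl libraries, and fell by 1.96 ± 0.43 (log2, SE, limma adjusted p = 0.00887). The limma adjusted p was 0.069 without shCtrl replicate 2 and 0.07 without shCtrl+shp300/CBP replicate 2, at log2 values of -1.74 and -1.85. MT2A had 48.1 and 47.6 FPKM in shCtrl+shp300/CBP libraries, against 81.6 and 109.6 FPKM in shCtrl libraries, without overlap and without a call (log2 -0.98 ± 0.55, limma adjusted p = 0.256), although it was called lower when only these 2 groups entered the fit (limma adjusted p = 0.0058). The transporters SLC30A1, SLC39A6 and SLC39A7, all lower in HOXB13-depleted cells, differed here by 0.28 ± 0.15, 0.35 ± 0.21 and -0.19 ± 0.19 (log2), none called.

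The effects of double knockdown differed between the 2 backgrounds for 3 members, against 2.53% of genes higher and 5.59% lower. The interaction was -1.39 ± 0.30 for SLC39A6 (log2, SE, limma adjusted p = 0.0176), -0.99 ± 0.21 for SLC30A1 (limma adjusted p = 0.0148) and 2.17 ± 0.61 for MT1G (limma adjusted p = 0.0494). With 2 libraries a group these calls were not firm. That of MT1G held in 4 of 9 other settings, at limma adjusted p values of 0.018 to 0.074, and those of SLC39A6 and SLC30A1 in all 9. Without 1 library, the MT1G call held in 1 of 8 fits, and its value fell to 1.42 without shHOXB13+shp300/CBP replicate 1. SLC39A6 lost its call in 6 of the 8 fits, with log2 values of -1.44 to -1.33 over all 8. SLC30A1 lost its call in 3, at -0.96 without shCtrl replicate 1, -0.97 without shHOXB13 replicate 1 and -0.93 without shCtrl+shp300/CBP replicate 2. SLC39A7 missed the threshold at -0.93 ± 0.26 (limma adjusted p = 0.0513) and passed it under 5 alternatives, at log2 values of -0.82 to -0.94. With both hairpins, EP300 and CREBBP differed by log2 -0.41 and -0.27 in shHOXB13 cells, and by -0.90 and -0.50 in shCtrl cells. Their own interactions were 0.50 and 0.23 (limma adjusted p = 0.195 and 0.582). The part of these differences in the interactions of the members was not tested.

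With the p300 and CBP hairpins in both arms, 3 of the 4 tested metallothioneins rose with HOXB13 knockdown, 1 of them not firmly. In shHOXB13+shp300/CBP against shCtrl+shp300/CBP, MT2A had 926 and 167 FPKM against 48.1 and 47.6 FPKM, and rose by 3.04 ± 0.55 (log2, SE, limma adjusted p = 0.000856). MT1G had 69.7 and 24.5 FPKM against 5.62 and 4.84 FPKM, and rose by 2.96 ± 0.43 (limma adjusted p = 0.00021). MT1F had 23.8 and 12.9 FPKM against 5.69 and 6.97 FPKM, and rose by 1.46 ± 0.36 (limma adjusted p = 0.00637). Without shHOXB13+shp300/CBP replicate 1 these values were 1.80 (limma adjusted p = 0.00039), 2.21 (limma adjusted p = 0.0012) and 1.02 (limma adjusted p = 0.064), so the rises of MT2A and MT1G held and that of MT1F did not. MT1F also missed the threshold without shCtrl+shp300/CBP replicate 1 (1.32, limma adjusted p = 0.051). MT1X, at 149 and 31.2 FPKM against 28.2 and 25.8 FPKM, was not called (log2 1.34 ± 0.51, limma adjusted p = 0.05), and its log2 value was 0.21 without the same library. It was called under 4 alternatives, which were a filter at 1 FPKM (limma adjusted p = 0.036), median-of-ratios scaling (log2 1.82), rescaling to a fixed sum (log2 1.66) and limma-voom (log2 1.42). MTF1 had 3.59 and 2.81 FPKM against 2.31 and 2.40 FPKM (log2 0.42 ± 0.17, limma adjusted p = 0.072) and was called with median-of-ratios scaling (log2 0.88), when rescaled to a fixed sum (log2 0.74) and without shHOXB13+shp300/CBP replicate 2 (log2 0.59). SLC39A6 had 18.0 and 18.9 FPKM against 80.0 and 79.2 FPKM, and fell by 2.11 ± 0.21 (limma adjusted p = 1.96e-05), the largest fall of any member in the 14 comparisons. SLC30A1, at -0.33 ± 0.15, was at the all-gene median of -0.35. The background was 7.09% higher and 30.8% lower, or 15.7% and 13.8% with median-of-ratios scaling. This comparison shares its shHOXB13+shp300/CBP libraries with the previous ones.

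Ordered by group mean, MT2A ran in the knockdown series from shHOXB13+shp300/CBP (547 ± 536 FPKM, SD, n = 2) through shHOXB13+shp300 (363 ± 43.5), shHOXB13 (336 ± 35.8) and shHOXB13+shCBP (299 ± 82.4) to shCtrl (95.6 ± 19.8), shCtrl+shp300 (67.5 ± 5.15), shCtrl+shCBP (64.4 ± 10.8) and shCtrl+shp300/CBP (47.9 ± 0.359). Neighbours among the first 4 groups overlapped, and so did shCtrl+shp300 and shCtrl+shCBP. All 8 shHOXB13 libraries of the series were above all 8 shCtrl libraries. In the CCS1477 series the order was shHOXB13 DMSO (299.9 ± 21.4 FPKM, SD, n = 3), shHOXB13 CCS1477 (124 ± 5.86), shCtrl CCS1477 (85.0 ± 23.1) and shCtrl DMSO (78.8 ± 22.2), of which the last pair overlapped. SLC39A6 had the 2 backgrounds in the reverse order in the knockdown series, with all 8 shHOXB13 libraries at 18.0 to 39.3 FPKM and all 8 shCtrl libraries at 62.1 to 119.9 FPKM, a separation that was absent with CCS1477, where SLC39A6 had 71.9 to 73.8 FPKM in shHOXB13 CCS1477 libraries, against 55.1 to 73.5 FPKM in shCtrl CCS1477 libraries.

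The members were next set against the other genes of zinc handling, a list of 26 genes of which 18 could be tested with the knockdown libraries and 17 with the CCS1477 libraries. The other metallothioneins MT1A, MT1B, MT1H, MT1M and MT4 were at or near 0 in all libraries, so MT2A, MT1X, MT1G and MT1F carried the family. The clearest change of any zinc gene was in SLC30A4 (ZnT4), which loads zinc into secretory vesicles. It had 0.839 and 0.441 FPKM in shHOXB13 libraries, against 42.1 and 42.7 FPKM in shCtrl libraries, and 1.28, 2.08 and 1.83 FPKM in shHOXB13 DMSO libraries, against 83.8, 94.3 and 93.1 FPKM in shCtrl DMSO libraries. SLC30A4 changed by -5.90 ± 0.45 (log2, SE, limma adjusted p = 2.64e-06) and by -5.65 ± 0.16 (limma adjusted p = 3.09e-10). By size it was number 4 among the falls of all genes tested in both series. SLC30A4 overlaps the annotated genes HMGN2P46 and SLC30A4-AS1. Its values imply a length of 4284 bases, against 8026 in all its annotated exons. Which sequence was counted is not known, and its part in these differences was not tested. The log2 value was -4.64 with shp300/CBP in both arms and -4.70 with CCS1477 in both arms, and across all fits and left-out libraries of these 4 comparisons its log2 value was between -6.29 and -3.44. In shCtrl cells SLC30A4 had 16.8 and 14.8 FPKM with shp300/CBP, against 42.1 and 42.7 FPKM without, and fell by 1.42 ± 0.45 (limma adjusted p = 0.0466), a call lost under 4 alternatives (median-of-ratios scaling, a fixed sum, a pseudocount of 0.01 and no filter), at limma adjusted p values of up to 0.2 over all fits. The exporter of the plasma membrane, SLC30A1, and the exporter into vesicles, SLC30A4, thus changed in opposite directions with HOXB13 knockdown.

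Of the 18 other zinc genes tested in the knockdown series, 5 rose and 7 fell with HOXB13 knockdown, against 7.15% of all genes higher and 26.8% lower, with a median log2 fold change of -0.58 against -0.33 over all genes. With median-of-ratios scaling 6 rose and only SLC30A4 and SLC30A10 fell, so the falls of SLC30A9, SLC39A4, SLC39A9, SLC39A10 and SLC39A14 depended on the scaling. With DMSO 3 of 17 rose and 6 fell, against 8.58% of all genes higher and 30.6% lower, with a median of -0.22. Among genes reaching 1 FPKM, SLC39A8 (ZIP8), an importer of zinc and manganese, had 22.55 and 20.05 FPKM in shHOXB13 libraries, against 9.42 and 9.80 FPKM in shCtrl libraries, and rose by 1.14 ± 0.18 (log2, SE, limma adjusted p = 0.000516). With DMSO it had 18.8, 21.6 and 20.1 FPKM in shHOXB13 libraries, against 16.2, 13.9 and 14.5 FPKM in shCtrl libraries. It was not called there, although it was with median-of-ratios scaling. SLC39A8 also fell in shHOXB13 cells with shp300/CBP, to 6.6 and 8.86 FPKM (log2 -1.46 ± 0.18, limma adjusted p = 0.000266), with an interaction of -2.03 ± 0.26 (limma adjusted p = 0.00153), and it rose in shCtrl cells with shCBP, at 17.9 and 20.4 FPKM (log2 0.98 ± 0.18, limma adjusted p = 0.00762). SLC39A10 (ZIP10), a plasma membrane importer that pairs with ZIP6, fell in both series, in the knockdown series only without median-of-ratios scaling. It had 7.01 and 7.68 FPKM in shHOXB13 libraries, against 15.0 and 13.0 FPKM in shCtrl libraries, and CCS1477 raised it in shHOXB13 cells to 14.0, 13.2 and 13.4 FPKM, against 7.28, 7.81 and 8.39 FPKM with DMSO (log2 0.78 ± 0.12, limma adjusted p = 0.000456), a call lost with median-of-ratios scaling. SLC39A11 (ZIP11) had 13.2, 15.6 and 14.0 FPKM in shHOXB13 DMSO libraries, against 5.87, 7.22 and 5.37 FPKM in shCtrl DMSO libraries, and rose by 1.21 ± 0.10 (limma adjusted p = 1.39e-06). In the knockdown series it had 10.6 and 11.3 FPKM in shHOXB13 libraries, against 7.26 and 7.87 FPKM in shCtrl libraries. It was not called there, although it was with median-of-ratios scaling and when rescaled to a fixed sum. Double knockdown in shHOXB13 cells lowered 6 of the 18 (SLC30A6, SLC30A7, SLC30A9, SLC39A8, SLC39A11 and SLC39A14) and raised none, against 9.06% of all genes higher and 13.3% lower, with a median of -0.22 against 0.0 over all genes. With only the compared groups fitted it lowered 3 (SLC30A9, SLC39A8 and SLC39A11), where the all-gene shares were 3.56% higher and 8.94% lower. SLC30A3 was called higher with a pseudocount of 1 (all genes 5.89% higher and 10.9% lower) and with limma-voom (10.5% and 13.8%). SLC39A13 was called higher when rescaled to a fixed sum (14.1% and 6.68%). SLC30A3 was called higher in 6 comparisons from low reads, a median of 12.

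**Figure D5:**
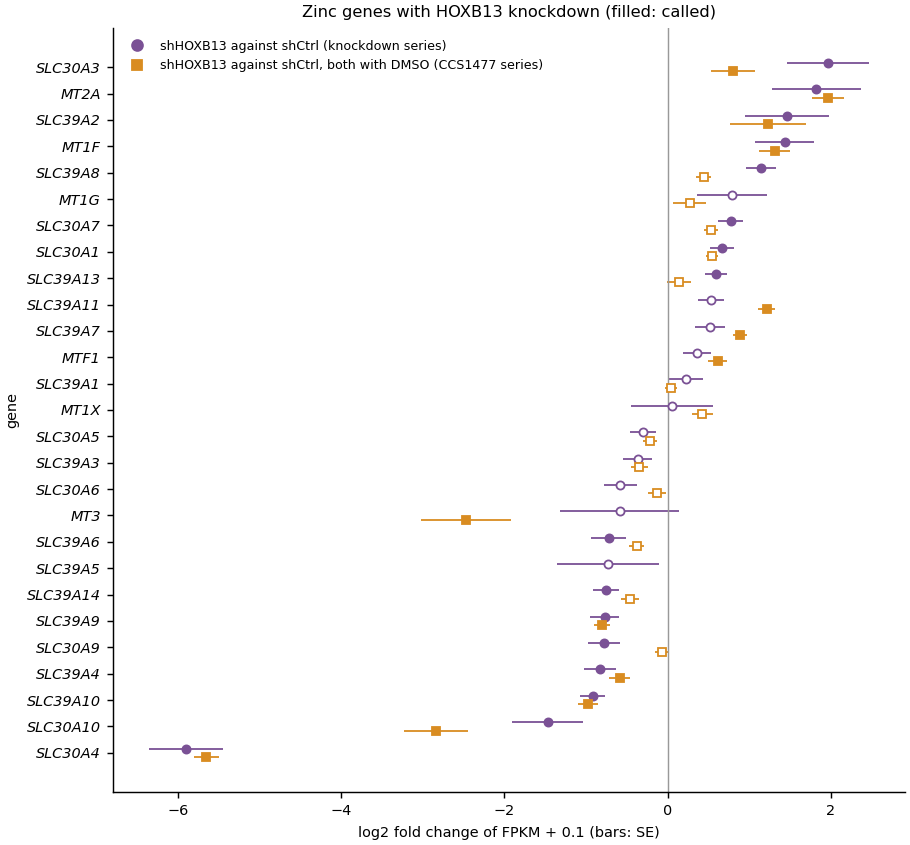
Log2 fold changes of shHOXB13 against shCtrl in the knockdown series (circles) and with DMSO in the CCS1477 series (squares) for the metallothioneins, MTF1 and zinc transporters tested. Bars are standard errors and filled symbols are called. MT2A is at 1.82 and 1.96, and SLC30A4 stands apart at -5.90 and -5.65.

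Across the 28 libraries, centred within each series, the members formed no single pattern. As a description over libraries that share groups and depth, MT2A and MT1G had a Pearson r of 0.83, MT2A and MT1F 0.69, MT2A and MT1X 0.63, and MT1F and MT1X 0.70. The MTF1 target SLC30A1 had 0.22 with MT2A and its highest value among the members, 0.65, with SLC39A7. SLC39A6 ran against the metallothioneins, at -0.79 with MT2A. MT2A had -0.84 with HOXB13 itself and -0.86 with SLC30A4, and SLC30A4 had 0.97 with HOXB13. Of 11297 genes with a mean of at least 1 FPKM in each series, those most like MT2A were CDR2L (0.948), TUBA4A (0.937), CDK18 (0.936), CRIP2 (0.935) and C10orf10 (0.933). Those most like SLC30A1 were GDE1 (0.903), MAN1B1 (0.89), MFSD1 (0.887), ENPP5 (0.886) and TMEM59 (0.886). MT1E, which has a coding sequence 92.5% identical to that of MT2A, was listed at 0 in all 28 libraries. How it was annotated when reads were counted is not given in the sources used here, so the 0 sets no limit on its expression.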

How the data were processed

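The deposited files, 1 per library, gave FPKM for 26475 genes, 32 of them without a value. Per the paper's methods and the submitters' notes, the authors aligned paired-end poly(A) reads to hg38 with STAR 2.6.0, counted reads per gene without strand, and divided by gene length and mapped reads to obtain the deposited FPKM values. The authors tested pairs of groups with DESeq2, which was not used here.

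Here, limma 3.58.1 (R 4.3.3) with a mean-dependent prior was fitted to log2(FPKM + 0.1), once per series (8 groups of 2 and 4 groups of 3), for genes at 0.1 FPKM or more in at least 2 libraries (knockdown, 17678 genes) or 3 libraries (CCS1477, 15907 genes). Fold changes are on that scale, which understates those of low genes. The 14 comparisons were adjusted over all genes tested, and the 2 series were never compared in a test. Reads were rebuilt from the steps of the values for 20267 genes, each given the smallest length at which all its values were whole reads. That 100.0% of their 472421 values above 0 were whole within 0.05 follows from this choice and is no check of it. The fit was tested on simulated data. Replicates were biological, per the paper's methods. Same-numbered libraries deviated together in shCtrl CCS1477 and shCtrl DMSO alone (correlations of 0.325, 0.145 and 0.145, with every other pair between -0.068 and 0.032), and a fit with that block was run. Alternatives changed the pseudocount, filter, scaling, block, groups fitted, test and libraries. The text names the 10 members, the hairpin targets, other zinc genes reaching a group mean of 1 FPKM that were called, and the 5 genes most like MT2A and SLC30A1. SLC30A10 and the low metallothioneins are named outside that rule. Members, lists and comparisons were chosen with earlier results of these data known.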

Additional observations from a re-analysis of the deposited data

Results flagged for a closer look

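The effect of an inhibitor or knockdown differed between HOXB13-depleted and control cells for 5 member and treatment pairs, by a test of the difference itself (limma interaction, Benjamini-Hochberg over all genes). With CCS1477 the interaction was -1.39 (log2) for MT2A and -1.25 for MT1F. With shp300/CBP it was -1.39 for SLC39A6, -0.99 for SLC30A1 and 2.17 for MT1G. The 2 CCS1477 values held in all fits without 1 library, whereas that of MT1G held in 1 of 8, and in 4 of 9 other settings. Groups of 2 and 3 libraries were too small for a test of single outlying samples.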

How the results depend on the processing

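Under other settings, 419 values of single genes kept their direction and their side of the threshold, 9 fell below it, 42 passed it and 0 reversed. Without 1 library, or without both shCtrl replicates 1 of the CCS1477 series, the numbers were 256, 31, 18 and 5. All these are values of members in comparisons where the member was called in at least 1 fit. Median-of-ratios scaling moved the number of members called to 7 in shHOXB13 against shCtrl alone, with DMSO and with shp300/CBP, to 3 for CCS1477 in shHOXB13 cells and for shHOXB13 against shCtrl with CCS1477, and to 2 for shCBP in shCtrl cells. Rescaling to a fixed sum gave 2 in the last 2 of these comparisons. Over all genes 8.1% were then higher and 11.7% lower in the first of the 2, and 4.91% and 3.22% in the second. With only the compared groups fitted, the number was 1 for shp300 in both backgrounds and 3 for shp300/CBP in shCtrl cells. For shp300 the all-gene shares were then 3.12% higher and 2.88% lower in shHOXB13 cells, and 1.17% and 2.62% in shCtrl cells. For shp300/CBP in shCtrl cells they were 10.5% and 11.1%. Limma-voom gave 1 for shp300 in shHOXB13 cells (all genes 3.67% higher and 3.62% lower) and for shCBP in shCtrl cells (4.55% and 9.12%). A filter at 1 FPKM gave 1 for the same shCBP comparison (4.57% and 9.49%). An alternative chosen after seeing the data, without both shCtrl replicates 1 of the CCS1477 series, gave 2 for shHOXB13 against shCtrl with CCS1477 (all genes 6.23% higher and 18.1% lower). The cause was not tested.

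Without 1 library of the CCS1477 series, the number of members called ranged from 1 to 2 for CCS1477 in either background. It did so too for shHOXB13 against shCtrl with CCS1477, ranged from 2 to 3 for the interaction and stayed at 4 with DMSO. The all-gene shares of these fits are not given, so the numbers are not a result about the members. In the knockdown series such a fit leaves a group with 1 library, and the number moved there too. It moved in shHOXB13 against shCtrl with and without shp300/CBP, for shp300/CBP in either background and for its interaction. For shp300/CBP in shHOXB13 cells, MT2A ranged from -1.0 to 1.47 (log2) and MT1X from -0.05 to 2.20. The interaction of MT2A ranged from -0.02 to 2.45. With shp300/CBP in both arms, SLC39A1 ranged from -0.19 to 0.41.

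The replicate block changed 1 call among the members, the shp300/CBP interaction of MT1G (log2 2.17, limma adjusted p = 0.068). With the block, CCS1477 in shCtrl cells still called 1 member. Over all genes, shCBP in shHOXB13 cells called 259 genes, 52 with the block, 80 with only the compared groups, 436 with a filter at 1 FPKM, 462 with median-of-ratios scaling and 528 with limma-voom. For shp300/CBP in shHOXB13 cells the number was 3953, and 1962 with only the compared groups. For shp300 in shCtrl cells it was 546, and 982 with limma-voom. With a pseudocount of 1, CCS1477 called 1853 genes in place of 3207 in shHOXB13 cells and 1154 in place of 1931 in shCtrl cells. Low reads limit MT1F most, with 12 to 135 a library.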

Other observations

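Of the genes far apart between replicates 1 and 2 of shHOXB13+shp300/CBP, 6 among the top 7 of 17678 by difference in log2(FPKM + 1), where MT2A ranked 38, were singled out after their values were seen. LDHA, a glycolytic enzyme, had 507 and 31.8 FPKM in replicates 1 and 2, against 60.3 and 58.2 FPKM in shHOXB13 libraries. HMOX1, which degrades haem, had 338 and 18.5 FPKM, against 26.3 and 28.3 FPKM in shHOXB13 libraries. NDUFA4L2 had 96.9 and 3.50 FPKM, against 4.30 and 2.30 FPKM, and PFKFB4 47.9 and 3.08 FPKM, against 3.30 and 3.25 FPKM. CRYAB, a small heat shock protein, had 174 and 8.81 FPKM, against 34.2 and 31.3 FPKM in shHOXB13 libraries, and PLOD2 had 34.3 and 1.05 FPKM, against 0.669 and 0.466 FPKM. HOXB13 had 5.25 and 7.94 FPKM in the same 2 libraries.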
